A study of Arabidopsis thaliana with 12 samples.

Results

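Anthocyanins are the red to purple flavonoid pigments of plants, and 5 genes that make and decorate them in Arabidopsis thaliana are described here: DFR, UGT78D2, UF3GT, AT4G14090 and AT5MAT. They are 5 of the 13350 genes that the array annotation names singly. Each gene was to be read from its brightest probe set, and each had only 1, so that rule made no choice. The genes themselves were chosen by earlier results of the same 12 arrays, without a record of which comparison was used. Their differences between groups are therefore a description, and no p-value is printed for any of the 5. The intervals given for them, and the statements of which passed a threshold, are likewise a description and not a test.

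The pathway starts from phenylalanine and shares its early steps, from chalcone synthase to the dihydroflavonols, with the colourless flavonols. DFR, dihydroflavonol 4-reductase, opens the branch to anthocyanins, and LDOX then makes the coloured anthocyanidin. UGT78D2 adds glucose at position 3 of the ring system, UF3GT (also called UGT79B1) adds xylose to that glucose, AT4G14090 (UGT75C1) adds glucose at position 5, and AT5MAT joins a malonyl group to the 5-glucose. In Arabidopsis seedlings fed with sugar, cytokinins are known to raise anthocyanin. Cytokinin signalling ends in type-B response regulators such as ARR10 and ARR12, transcription factors that switch on cytokinin-responsive genes, among them the type-A regulators ARR15 and ARR16.

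RNA came from aerial parts of seedlings grown for 2 weeks on MS agar and was hybridised to the Affymetrix ATH1 array, with 3 arrays for each of 4 groups. These were the mutant sprayed with 20 µM trans-zeatin (tZ, a natural cytokinin), wild-type Col-0 sprayed with 20 µM tZ, the mutant sprayed with 0.02% DMSO (the solvent control), and Col-0 sprayed with 0.02% DMSO, all collected after 1 h. The labels give the mutant as the T-DNA insertion lines SALK_098604 and SALK_054752, known as lines in ARR10 and ARR12, and do not say whether 1 plant carried both, so it is called the mutant throughout. Nor do they say if replicate arrays were separate cultures, and the spread between arrays on which every p-value rests may thus be technical.

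Deposited values were MAS5 signals, Affymetrix's summary of a probe set's brightness on a linear scale, scaled to a trimmed mean of 100 on every array, with array medians of 33.8 to 35.7. Replicate arrays had pairwise correlations across probe sets of 0.985 to 0.992. No probe set named ARR10 or ARR12 alone, so the insertions could not be checked. ARR15, a direct cytokinin target, averaged 158 ± 5.34 in the mutant under tZ, against 447 ± 40.2 in wild type under tZ (SD, n = 3 each). Under DMSO it averaged 11.1 ± 2.38 in the mutant, against 14.7 ± 5.05 in wild type, so ARR15 was higher under tZ in both genotypes. The leaf genes RCA and LHCB4.1 read 4577 to 5685 and 4365 to 5389, and PORB 1273 to 1827. Of 3 root markers, PRX57 was on no array above 11.2, the highest signal of the 27 absent-control probe sets, EXPA7 was above it on 2 of 12 arrays, and PYK10 read 483 to 1271. The 5′ to 3′ signal ratio of the control transcripts, a common sign of RNA and labelling quality, was higher on every tZ array than on every DMSO array. It was 0.285 ± 0.0251 under tZ and 0.0501 ± 0.00637 under DMSO for actin, 0.768 ± 0.0584 under tZ and 0.258 ± 0.0232 under DMSO for GAPDH, and 0.651 ± 0.0439 under tZ and 0.213 ± 0.0114 under DMSO for ubiquitin (SD, n = 6 each). This difference and the treatment cannot be told apart. In RNA from whole aerial parts, fewer cells of a type and less RNA per cell also cannot be told apart.

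DFR read 269, 373 and 258 in the mutant under tZ, against 574, 410 and 362 in wild type under tZ. Under DMSO it read 295, 348 and 343 in the mutant, against 248, 204 and 204 in wild type. The wild-type arrays separated completely by treatment, while the mutant arrays of both treatments shared one range that lay above all wild-type DMSO arrays. The share of all probe sets whose tZ and DMSO arrays separated completely was not counted. Nothing is therefore read from such separations, for DFR or for the genes below. In the mutant the means were 300 ± 63.0 under tZ and 329 ± 29.6 under DMSO (SD, n = 3 each, as for all means below), a log2 difference of -0.14 (SE 0.16, 95% interval -0.49 to 0.20) on the log2(signal + 10) scale used for all differences below. Left-out arrays moved that value between -0.30, without the replicate 2 array of the mutant under tZ, and -0.05, without its replicate 3 array. In wild type the means were 449 ± 111 under tZ and 219 ± 25.6 under DMSO, which is 2.05-fold and a log2 difference of 0.98 (SE 0.16, interval 0.64 to 1.33).

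UGT78D2, the 3-glucosyltransferase, serves flavonols as well as anthocyanins. It read 244, 245 and 220 in the mutant under tZ, against 372, 280 and 266 in wild type under tZ. The DMSO arrays read 327, 371 and 375 in the mutant, against 266, 281 and 283 in wild type. The highest group was the mutant under DMSO and the lowest the mutant under tZ. In the mutant the tZ mean was 237 ± 14.3 and the DMSO mean 357 ± 26.4, a ratio of 0.662 and a log2 difference of -0.57 (SE 0.10, interval -0.80 to -0.35). In wild type the means were 306 ± 57.6 under tZ and 277 ± 9.23 under DMSO with overlapping arrays, a log2 difference of 0.12 (SE 0.10, interval -0.10 to 0.35). That small difference rested on the replicate 1 array of wild type under tZ, since it was -0.02 without it.

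UF3GT, the xylosyltransferase that acts after UGT78D2, read 144, 170 and 130 in the mutant under tZ, against 281, 189 and 176 in wild type under tZ. Under DMSO it read 205, 169 and 177 in the mutant, against 153, 85.9 and 119 in wild type. The order of the 4 group means was that of DFR. In the mutant the means were 148 ± 20.5 under tZ and 184 ± 18.7 under DMSO, a log2 difference of -0.30 (SE 0.19, interval -0.70 to 0.11), and the arrays overlapped. In wild type the tZ mean was 215 ± 57.2 and the DMSO mean 119 ± 33.7, 1.80-fold, with a log2 difference of 0.81 (SE 0.19, interval 0.40 to 1.21).

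AT4G14090, the 5-glucosyltransferase, read 94.8, 139 and 97.9 in the mutant under tZ, against 232, 149 and 148 in wild type under tZ. The DMSO arrays read 55.6, 58.0 and 56.8 in the mutant, against 34.1, 49.8 and 45.7 in wild type. Every tZ array lay above every DMSO array, whichever the genotype, and the share of all probe sets that did so was not counted. In the mutant the means were 111 ± 24.9 under tZ and 56.8 ± 1.23 under DMSO, 1.95-fold, with a log2 difference of 0.83 (SE 0.17, interval 0.46 to 1.21). In wild type the tZ mean was 176 ± 48.3 and the DMSO mean 43.2 ± 8.13, 4.08-fold, with a log2 difference of 1.79 (SE 0.17, interval 1.42 to 2.17).

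AT5MAT, the malonyltransferase that needs the glucose placed by AT4G14090, read 27.3, 33.4 and 31.7 in the mutant under tZ, against 66.6, 48.3 and 58.0 in wild type under tZ. Under DMSO it read 18.3, 22.4 and 18.6 in the mutant, against 12.4, 16.3 and 14.4 in wild type. No pair of the 4 groups overlapped. In the mutant the means were 30.8 ± 3.14 under tZ and 19.8 ± 2.31 under DMSO, 1.56-fold, with a log2 difference of 0.45 (SE 0.13, interval 0.17 to 0.74). In wild type the tZ mean was 57.6 ± 9.14 and the DMSO mean 14.4 ± 1.96, 4.01-fold, with a log2 difference of 1.47 (SE 0.13, interval 1.18 to 1.76). The wild-type DMSO signals were near the absent-control maximum of 11.2, where the added 10 shrinks log2 differences: with 1 added in its place the wild-type difference was 1.93, and with 50 added it was 0.74.

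**Figure D1:**
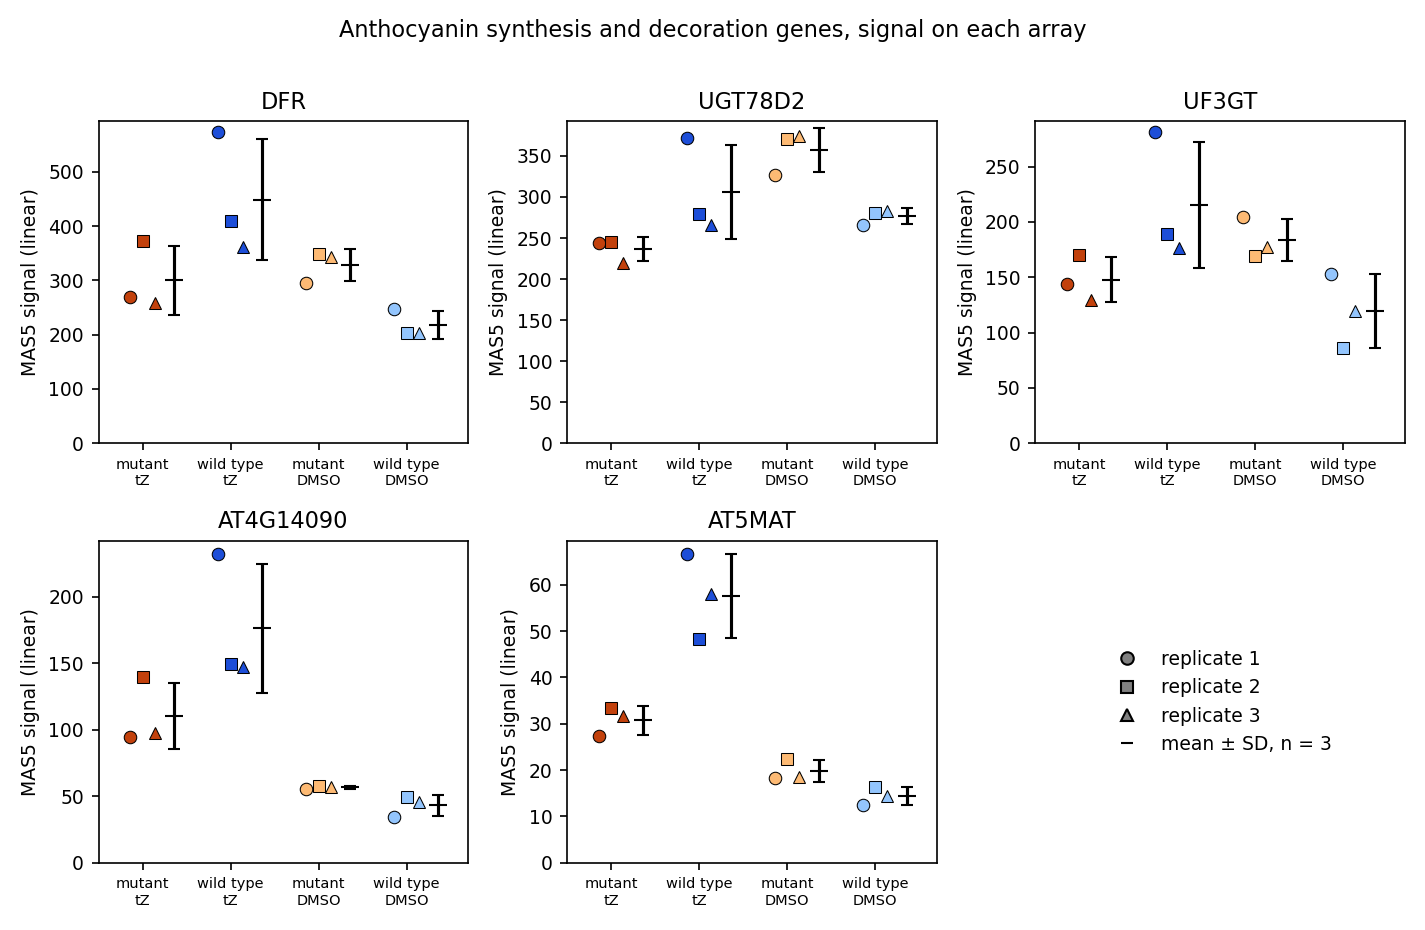
Signal of each of the 5 genes on each of the 12 arrays (linear MAS5 signal, each panel with its own axis starting at 0), with points for arrays and bars for the mean and SD of 3 arrays. Under tZ the mutant mean lies below the wild-type mean in every panel, for DFR 300 against 449, and under DMSO it lies above it, for DFR 329 against 219.

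Both genotypes under tZ were compared with DMSO to find how the genes moved with the hormone. The threshold was an adjusted p of 0.05 in limma, with Benjamini-Hochberg adjustment over 22746 probe sets. In the mutant AT4G14090 and AT5MAT passed as higher under tZ, beside 17.9% of all probe sets, and UGT78D2 passed as lower, beside 24.9%. DFR and UF3GT passed in neither direction in the mutant. In wild type 4 of the 5 genes passed as higher under tZ, all but UGT78D2, beside 18.2% of all probe sets. Because these results may have had a part in the choice of the genes, nothing is read from the counts. The AT5MAT call in the mutant was lost without the replicate 2 array of the mutant under tZ, where the log2 difference was 0.41. The median log2 difference of the 5 genes was -0.14 in the mutant, against -0.07 over all probe sets (5th to 95th percentile -0.89 to 1.00), and 0.98 in wild type, against -0.08 over all (-0.90 to 1.02). The comparisons in mutant and in wild type share no arrays. The summed signal of the 3 root markers was 504 to 747 under tZ and 904 to 1275 under DMSO in the mutant, and 497 to 576 under tZ and 649 to 1106 under DMSO in wild type, and its part in the result was not tested.

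Mutant and wild type were compared within each treatment to find how the genotypes differed. Under tZ the mutant was lower for all 5 genes. The log2 difference was -0.56 for DFR (SE 0.16, interval -0.90 to -0.21), -0.34 for UGT78D2 (SE 0.10, interval -0.57 to -0.12) and -0.49 for UF3GT (SE 0.19, interval -0.90 to -0.09). It was -0.62 for AT4G14090 (SE 0.17, interval -0.99 to -0.24) and -0.72 for AT5MAT (SE 0.13, interval -1.01 to -0.43). The arrays of mutant and wild type did not overlap for 4 of the genes, while for DFR the second mutant array, at 373, exceeded the third wild-type array, at 362. Of all probe sets, 6.77% were lower in the mutant under tZ without overlap. None of the 5 passed the adjusted threshold, which 8 probe sets (0.0352%) did in limma, where 1265 (5.56%) had an unadjusted p under 0.05. Without the replicate 1 array of wild type under tZ the log2 differences were -0.37 for DFR, -0.20 for UGT78D2, -0.30 for UF3GT, -0.41 for AT4G14090 and -0.63 for AT5MAT. The GAPDH 5′ to 3′ ratio was also lower under tZ in the mutant, 0.719 ± 0.0243 against 0.817 ± 0.0264 in wild type (SD, n = 3 each). The ratios of the other control transcripts overlapped between the genotypes under tZ. Actin averaged 0.274 in the mutant against 0.296 in wild type, and ubiquitin 0.658 against 0.643. The part of these ratios in the result was not tested.

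Under DMSO, with no hormone added, the order was the opposite, and the mutant was higher for all 5 genes. The log2 difference was 0.57 for DFR (SE 0.16, interval 0.22 to 0.91), 0.36 for UGT78D2 (SE 0.10, interval 0.13 to 0.58) and 0.61 for UF3GT (SE 0.19, interval 0.21 to 1.01). It was 0.34 for AT4G14090 (SE 0.17, interval -0.03 to 0.72) and 0.29 for AT5MAT (SE 0.13, interval 0.00 to 0.58). For all 5 genes every mutant array lay above every wild-type array, as for 6.0% of all probe sets. For UF3GT the size rested partly on the second wild-type DMSO array, at 85.9, since the log2 difference was 0.41 without it. For AT4G14090 it was 0.21 without the first wild-type DMSO array, at 34.1, and 0.20 with 50 added to the signal in place of 10. For AT5MAT it was 0.44 with 1 added and 0.12 with 50 added. None of the 5 passed the adjusted threshold, which 3 probe sets (0.0132%) did in limma, where 2162 (9.5%) had an unadjusted p under 0.05. For ubiquitin the 5′ to 3′ ratio under DMSO was higher in the mutant, 0.222 ± 0.00583 against 0.203 ± 0.00441 in wild type (SD, n = 3 each). The ratios of the other control transcripts overlapped between the genotypes under DMSO. Actin averaged 0.0503 in the mutant against 0.0499 in wild type, and GAPDH 0.252 against 0.264. The summed root markers given above also overlapped. PYK10, which made up nearly all of that sum, averaged 1129 ± 202 in the mutant against 837 ± 238 in wild type under DMSO. Its log2 difference was 0.45 (SE 0.19, interval 0.05 to 0.85) and did not pass the adjusted threshold. PRX57 and EXPA7, near the absent controls, had -0.12 and -0.22. The part of the ratios or the root markers in the result was not tested.

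UGT78D2, UF3GT, AT4G14090 and AT5MAT were both lower in the mutant under tZ and higher in it under DMSO without overlap, a pattern that 77 probe sets (0.339%) had. This pattern may have entered their choice. ARR15, ARR16 and UGT76C2 are genes known to be induced by cytokinin, and were chosen with earlier results of these arrays known. They were also lower in the mutant under tZ, by log2 differences of -1.44, -0.75 and -0.77. All were past the adjusted threshold (limma adjusted p = 0.00044, 0.00071 and 0.0019), which describes these genes and is not a separate test. Under DMSO their differences between mutant and wild type were -0.21, 0.10 and -0.08, none past the threshold. With tZ against DMSO, ARR16 had a log2 difference of 0.12 in the mutant, where the arrays overlapped, and 0.98 in wild type. ARR15 had 3.00 in the mutant and 4.23 in wild type, and UGT76C2 had 1.13 and 1.82.

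The interaction measures how far the tZ response of the mutant departs from that of wild type. It was negative for all 5 genes. The log2 value was -1.13 for DFR (SE 0.23, interval -1.61 to -0.64), -0.70 for UGT78D2 (SE 0.15, interval -1.02 to -0.38) and -1.10 for UF3GT (SE 0.27, interval -1.68 to -0.53). It was -0.96 for AT4G14090 (SE 0.25, interval -1.49 to -0.43) and -1.01 for AT5MAT (SE 0.19, interval -1.42 to -0.60). The median was -1.01, against 0.00 over all probe sets (5th to 95th percentile -0.38 to 0.40). Because the interaction may have entered the choice of the genes, nothing is read from the distance of this median. No probe set passed the adjusted threshold in limma (0.0%), and 1598 (7.03%) had an unadjusted p under 0.05. The interaction is the difference between genotypes under tZ minus that under DMSO. For DFR, UF3GT and UGT78D2 the differences between genotypes were of like size under both treatments, so that DFR had -0.56 under tZ and 0.57 under DMSO. For AT5MAT most of it lay under tZ, at -0.72, beside 0.29 under DMSO.

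**Figure D2:**
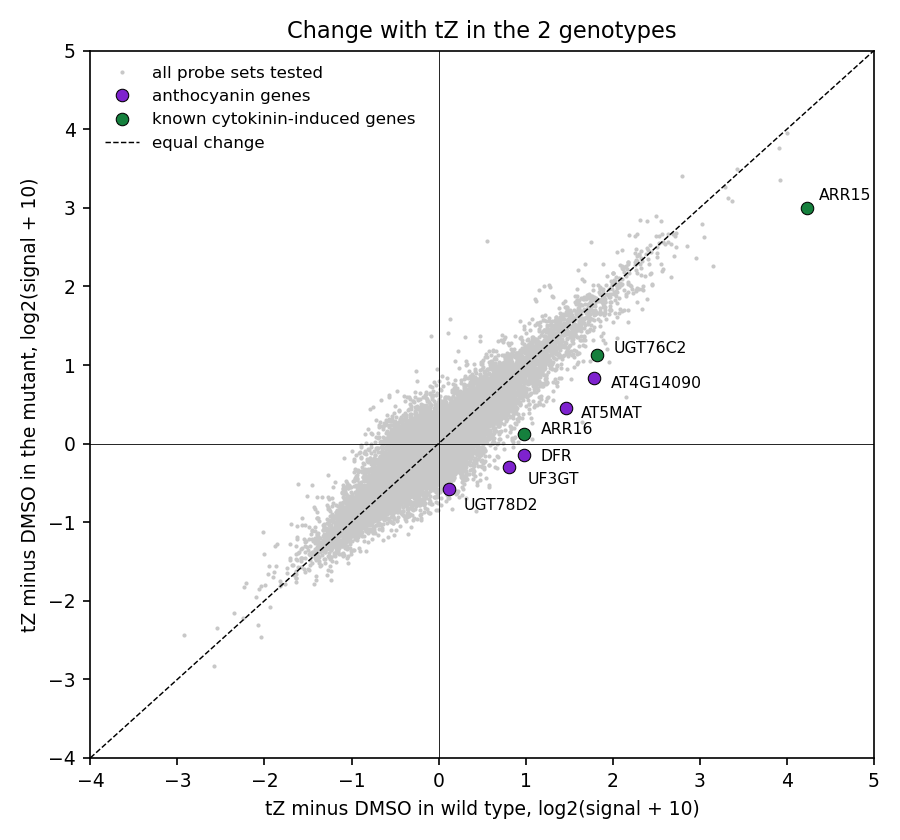
Log2 difference of tZ minus DMSO in the mutant (vertical) against that in wild type (horizontal), on the log2(signal + 10) scale, for all 22746 probe sets in grey, the 5 anthocyanin genes in purple and 3 known cytokinin-induced genes in green. The 5 genes lie below the dashed line of equal change, with UGT78D2 at -0.57 in the mutant and 0.12 in wild type, and AT4G14090 at 0.83 in the mutant and 1.79 in wild type.

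Within the tZ groups the 5 genes had a common highest array. In wild type under tZ the replicate 1 array was the highest for all 5, as for 36.6% of all probe sets, and in the mutant under tZ the replicate 2 array was the highest for all 5, as for 30.4%. Within the DMSO groups no array was the highest for all 5. In the mutant the replicate 1 array was the lowest for 4 genes and the highest for UF3GT, and the share of all probe sets lowest on it was not counted. In wild type under DMSO no array was the highest for more than 2 genes. After the mean of each treatment was taken out, the log2 signal of each gene correlated with the mean of the 5 (which contains it) at r = 0.968 for DFR, 0.950 for UGT78D2, 0.924 for AT4G14090, 0.888 for AT5MAT and 0.875 for UF3GT over 12 arrays. With the treatments left in, UGT78D2 stood apart, at 0.278, and the other 4 had 0.824 to 0.957. These values keep the differences between genotypes and describe arrays that share their scaling.

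The rest of the pathway was covered thinly by the names available. Of 54 listed genes in 8 lists of enzymes and regulators, 6 were named by a probe set of their own: CHIL among the early flavonoid genes, UGT78D1, UGT78D3 and UGT89C1 among the flavonol genes, BAN in the proanthocyanidin branch and the Kelch F-box gene KFB-CHS among the genes of protein breakdown. The lists of general phenylpropanoid genes, other late anthocyanin genes, activators and repressors had no gene measured here. BAN, an anthocyanidin reductase of the seed coat, read 0.419 to 3.40 and UGT78D3, a flavonol arabinosyltransferase, 1.04 to 7.64. Both were below the absent-control maximum on all 12 arrays, so no difference is given.

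With tZ, 2 of the other 4 genes rose and 2 fell in the mutant, where 17.9% of all probe sets rose and 24.9% fell. In wild type 2 rose, 1 fell and 1 did not pass, where 18.2% of all probe sets rose and 25.4% fell. CHIL, a chalcone isomerase-like protein that assists chalcone synthase, read 229, 246 and 170 in the mutant under tZ, against 313, 232 and 229 in wild type under tZ. The DMSO arrays read 86.7, 103 and 105 in the mutant, against 83.6, 70.9 and 68.7 in wild type. Every tZ array lay above every DMSO array, and CHIL rose 2.19-fold in the mutant (log2 difference 1.05, SE 0.14, limma adjusted p = 3.2e-05) and 3.46-fold in wild type (1.66, SE 0.14, limma adjusted p = 4e-07). UGT89C1, a flavonol 7-O-rhamnosyltransferase, read 376, 375 and 269 in the mutant under tZ, against 518, 356 and 397 in wild type under tZ. On the DMSO arrays it read 215, 194 and 279 in the mutant, against 149, 167 and 172 in wild type. In the mutant, where the arrays overlapped, the log2 difference was 0.55 (SE 0.16, limma adjusted p = 0.011). That call was lost without the replicate 1 or the replicate 2 array of the mutant under tZ, or the replicate 2 array of the mutant under DMSO, with limma adjusted p of 0.052 to 0.057. In wild type UGT89C1 rose 2.61-fold (1.31, SE 0.16, limma adjusted p = 9.8e-06).

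UGT78D1, the flavonol 3-O-rhamnosyltransferase and a close relative of UGT78D2, read 313, 352 and 275 in the mutant under tZ, against 473, 344 and 299 in wild type under tZ. The DMSO arrays read 586, 700 and 523 in the mutant, against 475, 447 and 478 in wild type. As for UGT78D2, the mutant under DMSO had the highest mean and the mutant under tZ the lowest, and whether the probes of either gene also pair with RNA of the other was not tested. In the mutant it fell by 0.92 on the log2 scale (SE 0.14, limma adjusted p = 0.00012), while in wild type the log2 difference of -0.35 did not pass (SE 0.14, limma adjusted p = 0.070). Without the replicate 1 array of wild type under tZ the wild-type value was -0.53 and passed, and without its replicate 3 array it was -0.21. KFB-CHS, which promotes the breakdown of chalcone synthase, read 103, 165 and 222 in the mutant under tZ, against 96.4, 111 and 117 in wild type under tZ. Under DMSO it read 403, 329 and 325 in the mutant, against 473, 488 and 440 in wild type. Every tZ array lay below every DMSO array. For this separation, and for that of CHIL, the share of all probe sets was not counted. With tZ, KFB-CHS fell by 1.12 on the log2 scale in the mutant (SE 0.19, limma adjusted p = 0.00021) and fell by 2.02 in wild type (SE 0.19, limma adjusted p = 8.4e-07).

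**Figure D3:**
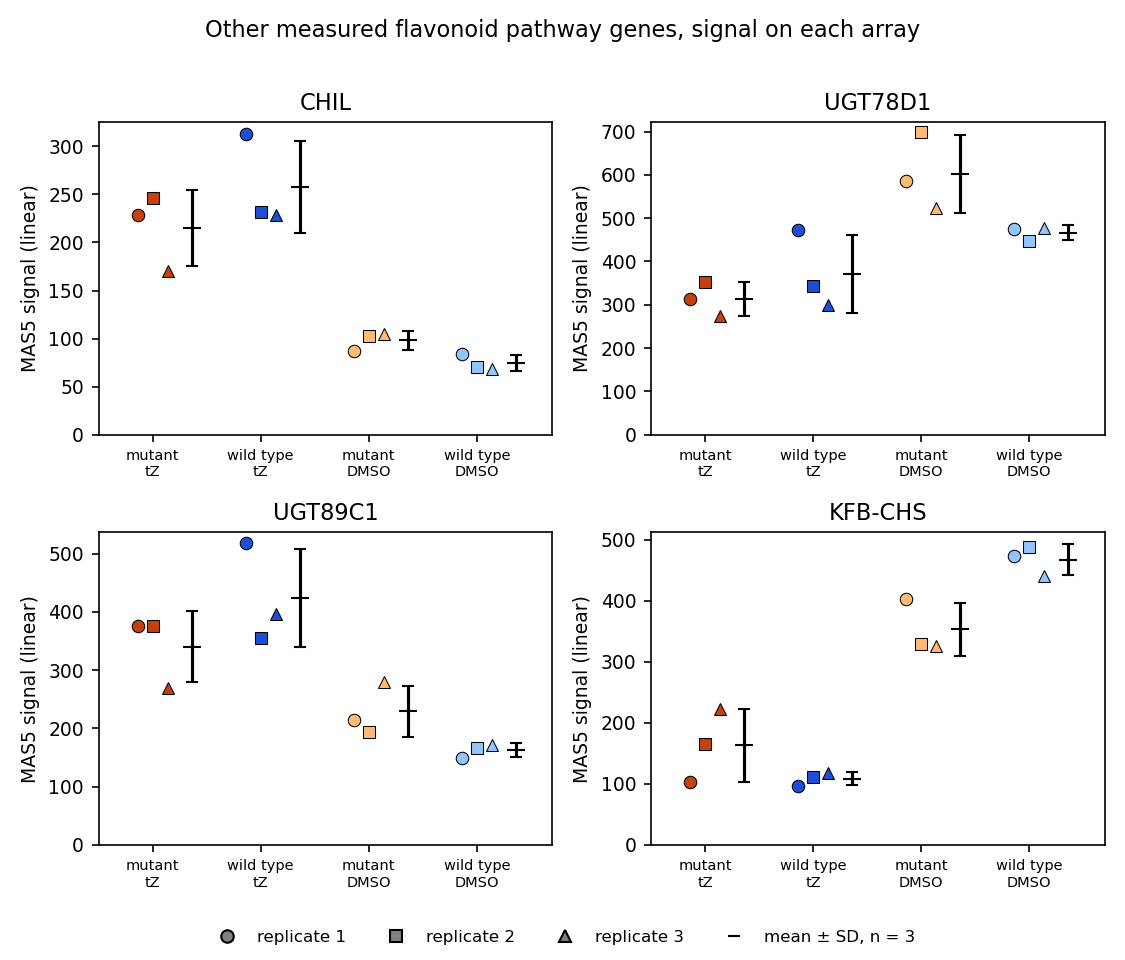
Signal of CHIL, UGT78D1, UGT89C1 and KFB-CHS on each of the 12 arrays (linear MAS5 signal, each panel with its own axis starting at 0), with points for arrays and bars for the mean and SD of 3 arrays. CHIL and UGT89C1 have their highest mean in wild type under tZ, at 258 and 424, and KFB-CHS has its lowest there, at 108.

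None of these 4 genes passed in any comparison of mutant with wild type. Under tZ the log2 differences were -0.25 for CHIL, -0.31 for UGT89C1, -0.22 for UGT78D1 and 0.50 for KFB-CHS (limma adjusted p = 0.73 to 0.96). These sizes rested on single arrays. Without the replicate 1 array of wild type under tZ they were -0.11 for CHIL, -0.15 for UGT89C1 and -0.04 for UGT78D1, and without the replicate 3 array of the mutant under tZ they were -0.10 for CHIL, -0.15 for UGT89C1, -0.13 for UGT78D1 and 0.25 for KFB-CHS. KFB-CHS had 0.77 without the replicate 1 array of the mutant under tZ, and UGT78D1 had -0.36 without the replicate 3 array of wild type under tZ. Under DMSO the log2 differences were 0.36 for CHIL, 0.46 for UGT89C1, 0.35 for UGT78D1 and -0.40 for KFB-CHS (limma adjusted p = 0.39 to 0.53). For CHIL, UGT89C1 and UGT78D1 every mutant DMSO array lay above every wild-type DMSO array, as for 6.0% of all probe sets and for the 5 anthocyanin genes. For KFB-CHS every mutant DMSO array lay below, and the share of all probe sets lower in this way was not counted. The interaction was -0.61 for CHIL (SE 0.20), -0.76 for UGT89C1 (SE 0.22), -0.58 for UGT78D1 (SE 0.20) and 0.90 for KFB-CHS (SE 0.27), with limma adjusted p of 0.49 to 0.59. CHIL, UGT89C1 and UGT78D1 had the signs of the 5 anthocyanin genes under tZ and under DMSO. KFB-CHS had the opposite sign under each treatment, and none of these values passed. The sign of the interaction follows from those differences and adds no further agreement.

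**Figure D4:**
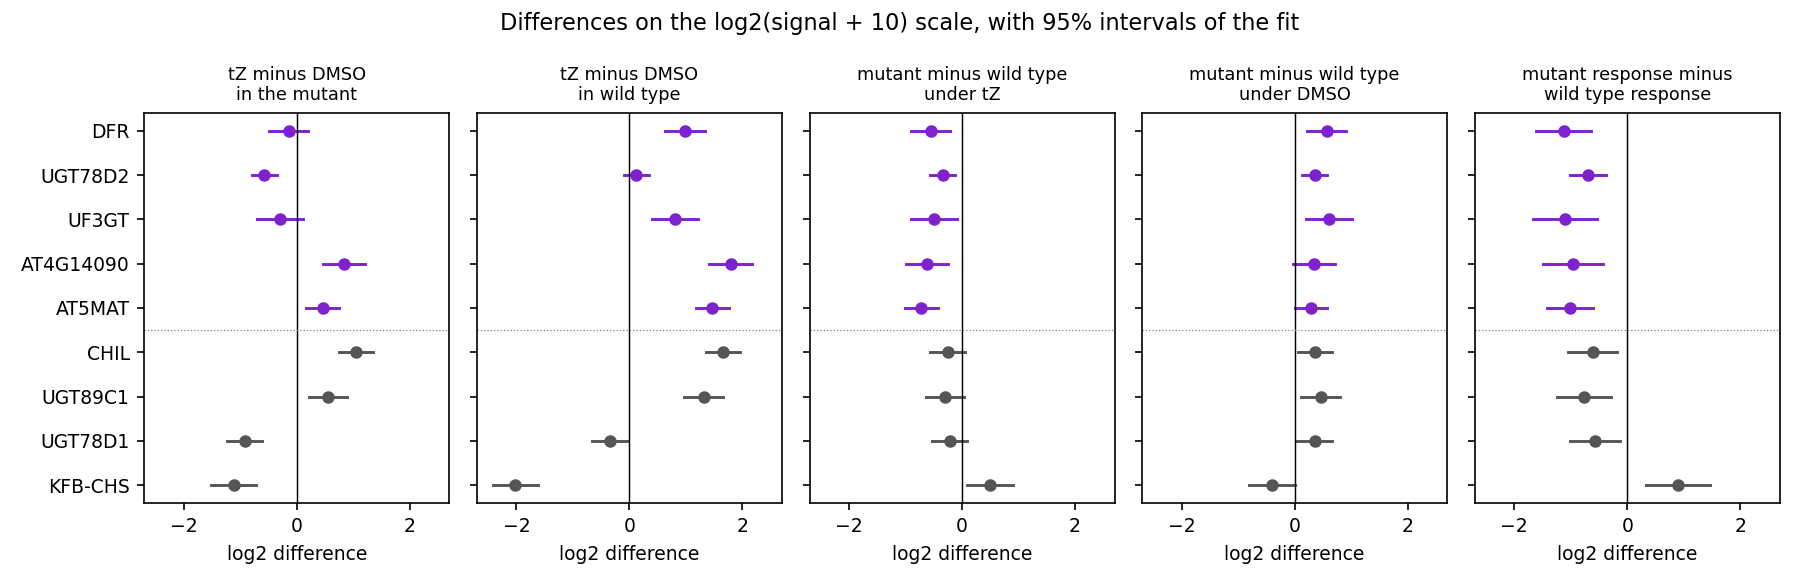
Log2 differences on the log2(signal + 10) scale, with 95% intervals from the fit to 12 arrays, for the 5 anthocyanin genes (purple) and 4 other pathway genes (grey); the panels are tZ minus DMSO in the mutant and in wild type, mutant minus wild type under tZ and under DMSO, and the mutant response minus the wild-type response. The purple points of mutant minus wild type all lie below 0 under tZ, at -0.34 to -0.72, and above 0 under DMSO, at 0.29 to 0.61, and KFB-CHS lies opposite to the other 8 genes in the last 3 panels.

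Likeness was measured as Pearson's r with the mean log2 signal of the 5 genes over 12 arrays, among 6441 probe sets that name 1 gene and average a signal of at least 30. The genes most like that mean were AT2G27420 (r = 0.921), the asparaginase gene ASPGB1 (0.913), the aldehyde dehydrogenase gene ALDH11A3 (0.913), AT3G57070 (0.911) and the photosystem I subunit gene psaI (0.892). UGT89C1 had 0.889, CHIL 0.854, UGT78D1 -0.203 and KFB-CHS -0.828. After the mean of each treatment was taken out, the most like were the phospholipid synthesis gene AAPT2 (0.886), ALDH11A3 (0.873), AT3G50690 (0.870), the cell wall gene XTH32 (0.868) and ASPGB1 (0.858), while CHIL had 0.853, UGT78D1 0.847, UGT89C1 0.797 and KFB-CHS -0.679. ALDH11A3 and ASPGB1 were in both sets of 5.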

How the data were processed

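Per the submitters' processing notes and the values, the authors deposited MAS5 signal intensity, on a linear scale and normalized to a trimmed mean of 100 per array, for 22810 probe sets on 12 arrays. The number of arrays limits the precision. Genes were named from the platform annotation: of 22746 probe sets left after 64 controls, 13513 named 1 gene, 503 several and 8730 none, and 13436 were matched by locus to the RefSeq gene table. Signals plus 10 were put on the log2 scale and fitted with limma 3.58.1 (R 4.3.3) with 1 mean per group, a variance trend and Benjamini-Hochberg adjustment over all probe sets. The fit was tested on simulated data. The 5 genes and the pathway, marker and cytokinin lists were chosen with earlier results of these data known. The text names the 5 genes, all listed pathway genes that were measured, 3 cytokinin controls, and the measured leaf and root markers. It also names the 5 genes most like the mean of the members, before and after the treatment means were taken out. Replicate numbers did not pair the arrays. Other added constants, scalings, filters, weights, designs and left-out arrays were tried as alternatives.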

Additional observations from a re-analysis of the deposited data

How the results depend on the processing

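Of 1248 values computed for 60 results of 12 genes under the alternatives, 1233 kept their direction and their side of the threshold, 4 lost a call, 10 gained one and 1 turned round. The one that turned was UGT78D2 with tZ in wild type, -0.0202 to 0.2144 on the log2 scale over fits that left out 1 array each. The counts of probe sets called in the comparisons of genotypes were small and moved. Under tZ, 8 probe sets became 15 without the dimmest 40% and 22 with array weights, and 1 of the 5 genes, AT5MAT, was called without the dimmest 40%. Under DMSO, 3 became 18 without the dimmest 40% and 3 to 10 with 1 array left out, the 10 without the replicate 1 array of wild type under DMSO. For the interaction, 0 became 1 with 1 added to the signal, 2 with 50 added, 1 after quantile normalization, 1 without the dimmest 40% and 0 to 1 with 1 array left out. None of the 5 genes was called for the interaction under any of 20 alternatives, where its values ran over -1.29 to -0.94 for DFR, -0.79 to -0.55 for UGT78D2, -1.29 to -0.89 for UF3GT, -1.12 to -0.69 for AT4G14090 and -1.31 to -0.53 for AT5MAT, the widest with the added constant. UGT78D1 in wild type was called without the dimmest 40% and with the replicate block. The cause of these changes was not tested.

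Arrays with the same replicate number did not deviate together (18 pairs, r = -0.0850 to 0.0687), and 3 of 12 arrays correlated best with their own number. With the replicate block, 9552 probe sets were called for tZ against DMSO in mutant plants, 9711 for tZ against DMSO in wild type, 8 between genotypes under tZ, 4 under DMSO and 0 for the interaction. Use of other probe sets gave no value, since each gene had 1, and a fit of only the groups compared does not apply to the interaction, which needs all 4. The search of promoters and proteins was not run.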
